A study of Mus musculus with 36 samples.

Results

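The effect of ligature-induced periodontitis (LIP) on the epididymal white adipose tissue (eWAT) of CCL19-knock-in (CCL19-KI) mice fed a normal diet (ND) was examined by RNA-sequencing. The 6 libraries were chosen by their labels alone, 3 from mice with a ligature for 2 weeks and 3 whose labels name no ligature, out of 36 libraries in 12 groups. All 6 mice were male and homozygous for *Ccl19* inserted at the *Adipoq* locus, designed to leave *Adipoq* itself intact per the study's methods, and all had been fed the ND for 10 weeks. The mice entered their diet groups at 6 weeks of age, a silk thread was tied around the upper second molars of both sides at 14 weeks, and eWAT was taken at 16 weeks after perfusion with saline. The sets used for comparison each had 3 ligatured and 3 unligatured mice: wild-type (WT) C57BL/6 mice on the ND, which were bred as a separate line, and CCL19-KI mice on a 40% and on a 60% high-fat diet (HFD). The series' design text mentions the ligature for all groups, and the labels were followed here.

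White adipocytes store triglycerides and release fatty acids, adipokines and cytokines, and eWAT also holds macrophages, mast cells, progenitors, vessels and nerves. CCL19 is a chemokine that attracts dendritic cells and lymphocytes through the receptor CCR7, and in this line it is expressed from the locus of an adipocyte gene. The epididymal fat pad lies against the epididymis. Periodontitis is a bacterial inflammation of the tissue that holds the teeth, and a ligature provokes it by retaining plaque.

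The genotype of the libraries was examined first. *Ccl19* (chromosome 4, 42754525 to 42756577 on GRCm38) was at 16.4, 16.0 and 11.8 normalized CPM (reads scaled to library size) in the unligatured and 28.8, 14.9 and 21.1 CPM in the ligatured CCL19-KI mice. The near-identical copy *Gm2564*, which may share reads with *Ccl19* and is uncertain for that reason, was at 15.3 to 54.2 CPM in them. *Gm2564* was at 0 CPM in 5 of the 6 WT mice on the ND, but the library labelled WT unligatured replicate 2 held 41.9 CPM of it and 19.2 CPM of *Ccl19*. The library labelled CCL19-KI unligatured replicate 3 on the 60% HFD held 0 CPM of *Gm2564* and 0.687 CPM of *Ccl19*. By both genes these 2 libraries go against their labels, and the comparisons with WT mice and with the 60% HFD are given with and without them. A further transcript, *Gm16867*, was at 4.97 to 8.14 CPM in the CCL19-KI mice on the ND. It was at 7.03 and 4.155 CPM in WT ligatured replicates 1 and 2 on the ND, which held 0 CPM of *Gm2564*. For these WT ligatured libraries the labels were followed. The 6 libraries of CCL19-KI mice on the ND held 13025945 to 20248517 reads.

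No gene passed an adjusted p of 0.05 between the 3 ligatured and the 3 unligatured CCL19-KI mice (limma, 0% of 16671 genes tested). An unadjusted p under 0.05 was found for 2729 genes, and edgeR also called 0 genes. The study's criteria for differentially expressed genes (DEGs) ask for an unadjusted p of 0.05 or less together with a ratio of 1.5 and above or of 0.67 and below. By them, 994 genes (5.96%) were higher and 965 (5.79%) were lower in ligatured mice. The 3 values of one group lay wholly above those of the other for 1879 genes (11.3%) that were higher and 1003 (6.02%) that were lower with the ligature, and 1046 of the 1959 DEGs were separated in this way. The median log2 fold change over all genes was 0.04. These counts depended on single mice. Without unligatured replicate 1, 904 genes rose and 1527 fell by the adjusted p, while leaving out any other CCL19-KI mouse gave 0. The fit also holds the WT mice, and 75 genes passed without the library labelled WT unligatured replicate 2 and 3 without WT unligatured replicate 1. There were 3632 DEGs without CCL19-KI unligatured replicate 1, 1113 without unligatured replicate 2, 867 without unligatured replicate 3 and 1111 without ligatured replicate 2. In what follows, DEG means only that these criteria were met, since no gene passed the adjusted p. Each limma p-value sets a difference against the spread within the groups fitted together, here those of the 12 ND mice.

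Transcripts of other organs differed between the 6 libraries. Albumin (*Alb*), the main plasma protein made by the liver, was at 397, 11700.0 and 13696 CPM in the unligatured and 4333, 7.67 and 9.31 CPM in the ligatured mice. Unligatured replicates 2 and 3 and ligatured replicate 1 were high, the other 3 were lower, and the groups overlapped. All 12 hepatocyte markers were DEGs with lower values in ligatured mice, none separated the groups, and their median log2 fold change was -5.29. Their summed level was 598, 22492 and 25262 CPM without and 6516, 14.6 and 16.4 CPM with the ligature, and 12.3 to 38972 CPM in the other 30 libraries.

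The major urinary proteins, which the liver secretes for scent marking, went with the hepatocyte markers. Of 18 tested, 15 were DEGs and lower (median -4.76). They are near-identical copies among which reads may have been divided, so single members are uncertain. *Mup7* was at 84.2, 1358 and 5886 CPM without and 260.4, 0 and 0 CPM with the ligature, and ligatured replicate 1 lay within the range of the unligatured mice.

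All 10 digestive enzymes of the exocrine pancreas that were tested were DEGs and lower (median -2.50), and none separated the groups. The chymotrypsinogen *Ctrb1* was at 0, 36.7 and 24.9 CPM without and 0.159, 0 and 0 CPM with the ligature. Unligatured replicates 2 and 3 carried these enzymes, with a sum of 203.7 and 137 CPM, and the other 4 mice had at most 1.69 CPM. Haemoglobin and other erythroid genes, which mark blood, gave 0 DEGs of 5 (median -2.59), with sums of 678, 6951 and 4642 CPM against 4863, 105 and 185 CPM. The 3 libraries rich in liver transcripts were thus also the 3 with the most erythroid transcripts. How far these transcripts account for other differences was not tested. Lists were also counted without these 3 libraries, called liver-rich below, an alternative chosen after the values were seen. It leaves 1 unligatured mouse, which is assumed to vary like the other groups, and 2 ligatured mice, and by it 4.02% of genes were higher and 4.54% lower by the DEG criteria. Among them were 9 of 12 hepatocyte markers and 13 of 16 major urinary proteins, all lower. With the mean of the hepatocyte markers as a covariate, also chosen afterwards, 3.17% were higher and 1.95% lower. Of 9 kidney tubule genes, 6 were lower and 1 was higher by the DEG criteria (median -1.09), and 4 were separated, all lower. Their sums overlapped, at 313, 150 and 158 CPM without and 108, 188 and 134 CPM with the ligature. With the covariate, 1 of the 9 was a DEG in each direction (median -0.455).

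Skeletal muscle genes were higher in ligatured mice. Of 13 tested, 10 were DEGs, all higher, and 9 were separated, with a median of 2.24 against 0.04 over all genes. *Ckm*, the creatine kinase that buffers ATP in muscle, was at 0.142, 3.73 and 0.354 CPM without and 118, 27.4 and 10.4 CPM with the ligature (log2 fold change 4.12, SE 1.02, limma adjusted p = 0.214). *Ttn*, the giant spring protein of the sarcomere, was at 4.95, 4.97 and 5.84 CPM without and 65.6, 35.0 and 87.7 CPM with the ligature (log2 fold change 3.26, SE 0.67). For both, every ligatured mouse was above every unligatured mouse.

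The fast myosin *Myh4*, at 56.2, 2.89 and 6.37 CPM with the ligature, the calcium pump *Atp2a1*, at 52.0, 3.56 and 17.8 CPM, and the troponin *Tnnt3*, at 33.5, 2.03 and 8.58 CPM, were highest in ligatured replicate 1. In unligatured mice they did not exceed 0.283 CPM. *Actn3*, an actin cross-linker of fast fibres, was at 3.16, 7.40 and 4.60 against 27.7, 23.8 and 20.5 CPM, with the 3 ligatured mice close together. The list summed to 98.8, 70.9 and 60.0 CPM without and 676, 205 and 212 CPM with the ligature, against 34.0 to 190.2 CPM in the other 30 libraries. In a fit of all 36 mice, 8 of the 13 rose by the adjusted p. Without the 3 liver-rich libraries, 6 of 12 were DEGs, all higher (median 2.09).

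Smooth muscle and epididymal transcripts were high in ligatured replicates 1 and 2 but not in replicate 3. The enteric actin *Actg2* was at 0.0940, 62.1 and 0.177 CPM without and 730.0, 449 and 1.65 CPM with the ligature, and *Crisp1*, an epididymal protein that coats sperm, at 1.18, 436 and 1.00 against 2208, 932 and 9.62 CPM. Neither was a DEG, and unligatured replicate 2 carried both. Of 15 smooth muscle genes, *Des*, *Smtn*, *Mylk* and *Casq2* were DEGs and higher (median 1.77), and of 13 epididymal genes 0 were DEGs (median 0.77). Among 8 pericyte genes 4 were DEGs and higher, and the proteoglycan *Cspg4* was at 10.9, 2.81 and 3.66 against 18.5, 15.2 and 18.1 CPM. For *Cspg4* the groups were separated, with unligatured replicate 1 closest to the ligatured mice. With the hepatocyte covariate, 8 of 15 smooth muscle genes (median 2.64) and 2 of 8 pericyte genes (median 0.62) were DEGs, all higher. Of 12 smooth muscle genes tested without the 3 liver-rich libraries, 0 were higher and 1 was lower by the DEG criteria (median 1.52), and 0 of 8 pericyte genes were DEGs (median 0.16).

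**Figure D1:**
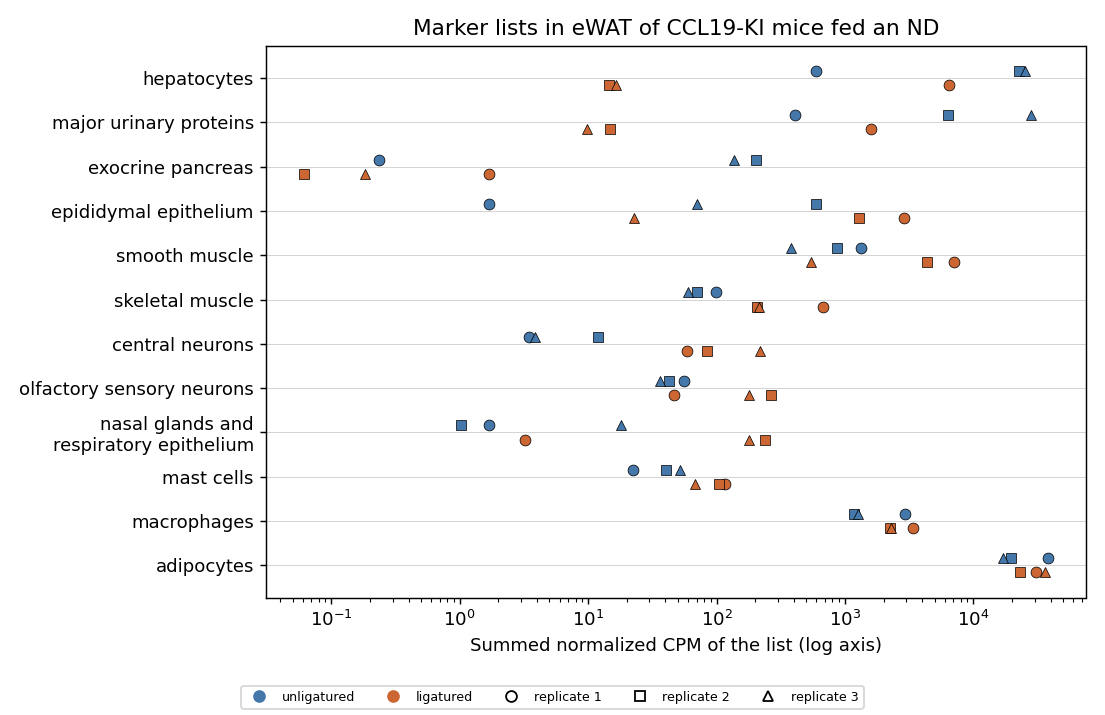
Summed normalized CPM of 12 gene lists in each of the 6 CCL19-KI mice fed an ND, on a log axis; blue marks are unligatured and orange marks ligatured mice, and the shape gives the replicate number. Hepatocyte genes were high in unligatured replicates 2 and 3 and ligatured replicate 1, whereas central neuron, skeletal muscle and mast cell genes were higher in all 3 ligatured mice than in any unligatured mouse.

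Neuronal genes were also higher in ligatured mice. Of 10 tested, 7 were DEGs and higher, and the intermediate filament *Prph* of peripheral neurons was a DEG and lower (median 1.14). *Snap25*, part of the machinery that fuses synaptic vesicles, was at 0.0470, 0.108 and 0.0590 CPM without and 0.212, 12.4 and 90.3 CPM with the ligature, so that ligatured replicate 1 held little of it. *Rims1*, which organizes the presynaptic release site, was at 0, 3.94 and 0 against 22.7, 14.5 and 17.6 CPM (log2 fold change 3.48, SE 0.73, limma adjusted p = 0.199), with all 3 ligatured mice alike. In a list of 12 genes of central neurons that was made after the values were seen, 10 were DEGs and higher, with sums of 3.44, 11.9 and 3.89 CPM without and 59.1, 84.4 and 217 CPM with the ligature. It includes the splicing factor *Rbfox3* of mature neurons, at 0, 4.21 and 0.295 against 27.5, 15.7 and 9.25 CPM, and the dendritic protein *Map2*, at 0.613, 0.756 and 1.00 against 3.39, 11.5 and 46.6 CPM. Without the 3 liver-rich libraries 6 of 9 genes of the neuron list and 11 of 12 of the central neuron list were DEGs and higher. With the hepatocyte covariate 0 of 10 (median 0.56) and 3 of 12 (median 0.88) were. Of 7 Schwann cell genes 3 were DEGs and higher, and 2 without the liver-rich libraries.

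Genes of the nasal mucosa were highest in 2 ligatured mice among the 6. *Omp*, the marker protein of mature olfactory neurons, was at 0.236, 0.324 and 0.354 CPM without and 0.423, 75.6 and 45.5 CPM with the ligature, high in ligatured replicates 2 and 3 and near the unligatured level in replicate 1. *Bpifa1*, a secreted protein of the nasal and upper airway lining, was at 0 CPM in all 3 unligatured mice and at 0.212, 81.7 and 52.6 CPM in ligatured mice, at least 279.9-fold higher in the mean against a floor of 3 reads per library. *Obp1a*, a carrier of odorants, was at 0 CPM in the other 4 mice and at 19.0 and 7.97 CPM in ligatured replicates 2 and 3. The sum of 10 olfactory genes, a list made after the values were seen, was 268 and 179 CPM in these 2 libraries, 364 CPM in the library labelled WT unligatured replicate 2, and 36.3 to 90.6 CPM in the other 33 libraries of the series. Of the 10, 1 was a DEG (median 1.66). Of 12 genes of nasal glands and respiratory epithelium, a list also made after the values were seen, 5 were DEGs, all higher (median 2.09). Without the liver-rich libraries these counts were 4 of 10 and 9 of 12, and with the covariate 0 and 1. The nasal list summed to 1.70, 1.03 and 18.0 CPM without and 3.23, 239 and 179 CPM with the ligature in CCL19-KI mice. In WT mice on the ND it summed to 76.8, 744 and 76.1 CPM without and 0.483, 0.253 and 2.17 CPM with the ligature, so that unligatured mice were the higher group there. *Bpifa1* was at 21.8, 77.5 and 9.20 CPM in the unligatured WT mice. Ligatured replicates 2 and 3 were also the 2 libraries with the lowest hepatocyte sums of the 6.

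The promoters of *Alb* and *Ckm* are shown because these genes lead the 2 lists that set the libraries apart. They are the 250 bases before the RefSeq start on GRCm38.p6, chr5:90460620-90460869 for *Alb* and chr7:19410844-19411093 for *Ckm*, both on the plus strand. Capitals mark GTTAAT, a core of the site of the liver factor HNF1, in *Alb*, and CAGCTG, an E-box of the kind bound by MyoD, in *Ckm*, each searched on both strands.
Alb: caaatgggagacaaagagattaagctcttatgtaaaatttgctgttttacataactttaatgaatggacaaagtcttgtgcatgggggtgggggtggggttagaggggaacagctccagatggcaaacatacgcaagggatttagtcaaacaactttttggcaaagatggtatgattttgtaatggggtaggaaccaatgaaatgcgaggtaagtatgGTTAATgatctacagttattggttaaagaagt
Ckm: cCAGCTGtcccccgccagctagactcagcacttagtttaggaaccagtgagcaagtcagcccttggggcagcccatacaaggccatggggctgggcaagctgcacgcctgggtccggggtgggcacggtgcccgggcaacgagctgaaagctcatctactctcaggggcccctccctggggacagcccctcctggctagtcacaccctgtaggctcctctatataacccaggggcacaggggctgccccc
GTTAAT was found in 3 of 11 hepatocyte promoters with an entry (27.3%) and in 6.52% of all 27025 promoters. CAGCTG was found in 4 of 11 skeletal muscle promoters (36.4%) and in 12.8% of all. The matches describe the sequence only.

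The 12 separated DEGs with the largest fold change in each direction were taken by rule. The higher ones were *Bpifa1*, *Ckm*, *Atp2a1*, *Omp*, *Dpp6*, *Rims1*, *Kif5c*, *Snap25*, *Myh4*, *Ttn*, *Tnnt3* and *Pcp4l1*, with log2 fold changes from 3.19 to 4.13. *Dpp6*, an auxiliary subunit of neuronal potassium channels, was at 0, 8.10 and 0.0590 CPM without and 33.5, 24.1 and 14.8 CPM with the ligature. *Kif5c*, a kinesin of axonal transport, was at 2.31, 24.8 and 2.06 against 102, 95.8 and 32.6 CPM. In both, unligatured replicate 2 was the highest of its group, as it was for *Rims1* and *Rbfox3*.

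Among the lower ones, *Insc*, which encodes the cell polarity adaptor Inscuteable, had the smallest adjusted p of all genes. *Insc* was at 8.02, 11.8 and 6.13 CPM without and 0.741, 0.737 and 0.551 CPM with the ligature (log2 fold change -2.49, SE 0.28, limma adjusted p = 0.0678). The groups did not overlap, which the rule for the named genes requires, and ligatured replicate 1 was as low as the other ligatured mice. *Insc* stayed a lower DEG in all 26 alternatives that tested it, the hepatocyte covariate among them. As *Insc* was chosen as a separated DEG, this is no independent check. What part liver transcripts had in the difference was otherwise not tested. In WT mice on the ND, *Insc* was at 1.20, 0.612 and 0.700 CPM without and 1.03, 1.98 and 0.542 CPM with the ligature, below every unligatured CCL19-KI mouse, and the difference of the ligature effects between genotypes was -2.70 (limma adjusted p = 0.0520, and -2.61 with adjusted p = 0.0690 without the library labelled WT unligatured replicate 2). *Insc* spans chromosome 7, 114743694 to 114850383 on GRCm38.

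*Wfdc21*, a small secreted protein, was at 72.8, 55.7 and 61.3 against 17.4, 11.0 and 17.2 CPM (log2 fold change -2.01, SE 0.60), with its highest value in unligatured replicate 1. *Cmah*, the enzyme that hydroxylates sialic acid, was at 97.6, 161 and 228 against 44.0, 28.5 and 32.2 CPM. *Nox4*, an NADPH oxidase that makes hydrogen peroxide, was at 26.3, 30.2 and 44.9 against 13.1, 5.34 and 5.21 CPM.

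*Marc1*, a mitochondrial reductase, was at 42.5, 93.4 and 141 against 18.2, 2.27 and 4.29 CPM, and *Paqr9*, a membrane receptor of the progestin receptor family, at 91.1, 80.8 and 219 against 33.3, 7.31 and 14.0 CPM. For both, ligatured replicate 1 lay between the other ligatured and the unligatured mice. *Onecut1*, a transcription factor of liver and pancreas, had the largest negative fold change of the 12 (-3.79) and was at 1.51, 41.8 and 44.6 against 0.847, 0 and 0 CPM. Unligatured replicates 2 and 3, the liver-rich ones, stood above replicate 1 in 9 of the 12 genes, *Onecut1*, *Sco2*, *Tfpi2*, *Abat*, *Slc34a1*, *Cmah*, *Nox4*, *Marc1* and *Adh6-ps1*, and not in *Insc*, *Wfdc21* and *Paqr9*. *Abat*, which degrades the transmitter GABA, was at 142, 543 and 544 against 83.7, 70.7 and 74.5 CPM. The last of the 12 was the pseudogene *Adh6-ps1*, at 2.50, 7.40 and 17.1 against 1.69, 0.184 and 0.245 CPM.

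**Figure D2:**
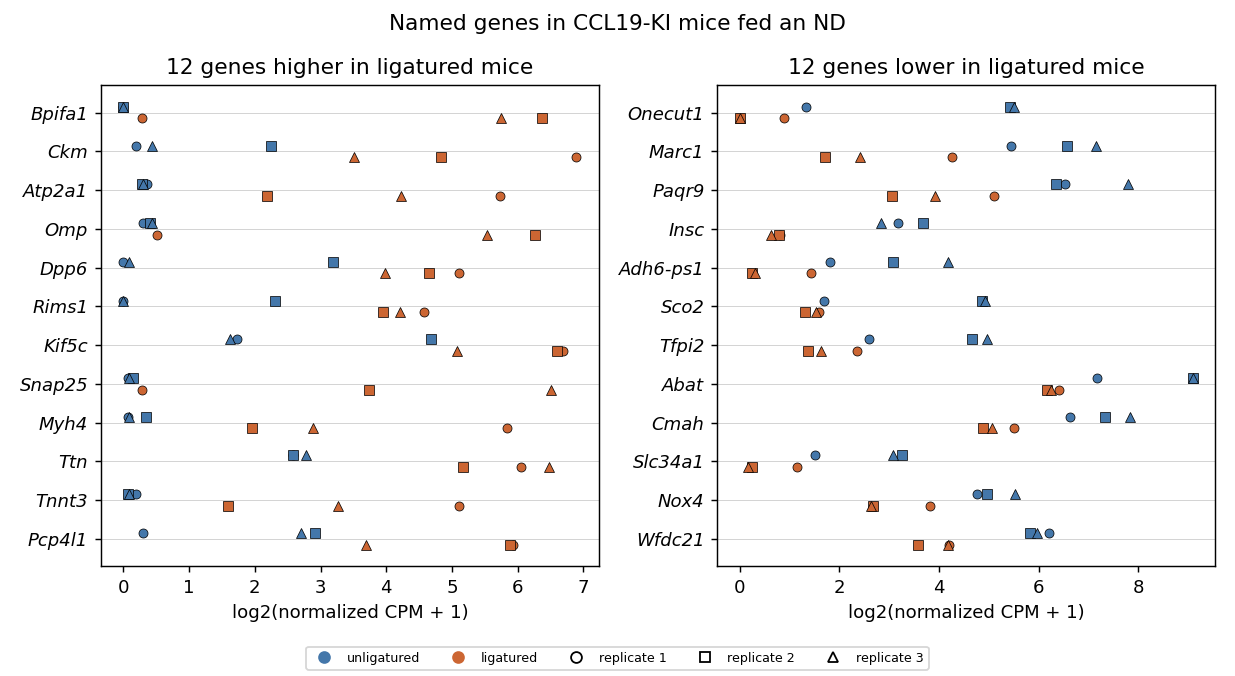
Values of the 24 named genes as log2(normalized CPM + 1) in each CCL19-KI mouse fed an ND; blue marks are unligatured, orange marks ligatured mice and the shape gives the replicate number. *Insc* separated the groups with little spread, from 6.13 to 11.8 CPM without and 0.551 to 0.741 CPM with the ligature, while *Omp* and *Bpifa1* were high only in ligatured replicates 2 and 3.

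Genes of fatty acid oxidation had lower values in ligatured mice. Of 25 tested, 18 were DEGs and lower and 0 were higher, 9 were separated, and the median was -1.17. *Acadm*, the medium-chain acyl-CoA dehydrogenase, was at 271, 440.1 and 509 CPM without and 184, 140.0 and 182 CPM with the ligature (log2 fold change -1.23, SE 0.28, limma adjusted p = 0.204). *Decr1*, needed to oxidize unsaturated fatty acids, was at 189, 236 and 296 against 126, 86.0 and 105 CPM. For both, every ligatured mouse was below every unligatured mouse.

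The peroxisomal enzyme *Ehhadh*, at 41.3, 1035 and 2039.7 against 122, 22.9 and 28.2 CPM, was a DEG but not separated, since ligatured replicate 1 was above unligatured replicate 1. Liver expresses this pathway strongly, and the list summed to 3133, 11603 and 16235 CPM without and 3434, 1939 and 2335 CPM with the ligature, highest in the 2 unligatured libraries rich in liver transcripts. Without the 3 liver-rich libraries, 1 of 24 genes was a DEG in each direction (median -0.46). With the hepatocyte covariate, 2 of 25 were DEGs, both lower (median -0.50), and without unligatured replicate 1, 21 of 25 fell by the adjusted p. Of 24 genes of oxidative phosphorylation 4 were DEGs, all lower (median -0.32), and 0 were without the liver-rich libraries (median -0.15).

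Adipocyte markers were abundant in all 6 mice, with sums of 38329, 19775 and 17007 CPM without and 30705, 22954 and 36368 CPM with the ligature. Of 20, 4 were DEGs and higher (median 0.48): the lipid droplet coats *Plin1* and *Plin4*, the hormone-sensitive lipase *Lipe*, and *Slc2a4*, the insulin-responsive glucose transporter. *Slc2a4* was at 42.7, 11.8 and 9.96 CPM without and 46.9, 46.2 and 48.4 CPM with the ligature, with the low values in unligatured replicates 2 and 3. Without the 3 liver-rich libraries, 0 were higher and 2 lower by the DEG criteria (median -0.15). *Lep*, the satiety hormone leptin, was at 2199, 128 and 199.5 against 195, 379 and 569 CPM, and *Adipoq*, the adiponectin gene at the knock-in locus, at 526, 436 and 309 against 805, 470.1 and 759 CPM. Neither was a DEG, and the groups overlapped. *Adipoq* was lower in all 6 CCL19-KI mice than in 5 of the 6 WT mice on the ND, which held 2103 to 3230 CPM, and the library labelled WT unligatured replicate 2 held 751 CPM.

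Genes of lipid synthesis and storage differed in both directions. *Srebf1*, a transcription factor of lipogenesis, was at 102, 46.9 and 43.9 CPM without and 149, 102 and 141 CPM with the ligature, and *Aacs*, which activates acetoacetate for lipid synthesis, at 54.7, 54.2 and 56.5 against 93.6, 68.2 and 124 CPM. Both were separated DEGs, while fatty acid synthase (*Fasn*), at 969.6, 185 and 201 against 1073, 1164 and 719 CPM, was not a DEG. *Gpd1*, which supplies the glycerol backbone of triglycerides, was a lower DEG at 471, 314 and 406 against 214, 139.6 and 192 CPM, as was the droplet coat *Plin2* at 226, 554 and 755 against 191, 80.5 and 119.8 CPM. The medians were 0.18 for lipogenesis (3 DEGs higher and 1 lower of 15), 0.09 for lipolysis and lipid droplets (4 and 2 of 18), -0.01 for fatty acid uptake and triglyceride synthesis (0 and 1 of 17) and -0.16 for cholesterol synthesis (0 and 3 of 24). None of these genes was a higher DEG without the 3 liver-rich libraries, and 0 of 15, 1 of 17, 1 of 17 and 1 of 23 were lower. The uncoupler *Ucp1* of thermogenic fat was at 0.413 CPM or less in all 6 mice and was not tested.

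Macrophage markers had higher values in ligatured mice. Of 18, 9 were DEGs, all higher, 7 were separated, and the median was 0.75. *Lyve1*, a hyaluronan receptor of perivascular macrophages, was at 72.5, 40.3 and 38.9 CPM without and 115, 122 and 124 CPM with the ligature. *Mertk*, a receptor for the uptake of dying cells, was at 27.1, 31.9 and 30.0 against 40.8, 55.9 and 58.0 CPM (log2 fold change 0.76, SE 0.20, limma adjusted p = 0.222), and *Cd163*, the haemoglobin scavenger receptor, at 182, 114 and 94.1 against 184, 197 and 194 CPM. All 3 separated the groups, but for *Cd163* unligatured replicate 1 was within 3 CPM of the lowest ligatured mouse. The sums were 2911, 1179 and 1253 CPM without and 3373, 2250.0 and 2274 CPM with the ligature, and those of the groups overlapped through unligatured replicate 1. Without the 3 liver-rich libraries, 2 of 18 were DEGs and higher (median -0.28), and with the hepatocyte covariate 3 of 18 were (median 0.59). In bulk tissue, more cells of a type and more RNA per cell cannot be told apart.

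Lipid-associated macrophage genes, which mark foamy cells around dying adipocytes, had a median of 0.06, with *Plin2* as the DEG among 16, and of -0.96 with 1 lower DEG without the liver-rich libraries. The genes named by the study in eWAT included *Gpnmb*, a glycoprotein of such cells, at 39.9, 29.7 and 23.0 against 29.3, 33.2 and 33.2 CPM, and *Spp1*, which encodes osteopontin, at 1.04, 2.00 and 4.95 against 1.96, 2.82 and 2.63 CPM. *Ccl2*, the chemokine MCP-1, was at 4.15, 1.13 and 1.36 against 3.76, 1.41 and 1.78 CPM. None of these 3 was a DEG and the groups overlapped. *Tnf* and *Il1b*, which encode inflammatory cytokines, did not exceed 0.614 and 1.06 CPM and were not tested. Of 9 such genes tested, 2 were DEGs and lower, *Onecut1* and *Kap*, an androgen-regulated kidney gene, and 0 of 7 without the liver-rich libraries.

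Mast cell genes were higher in ligatured mice. Of 7, 5 were DEGs, all higher (median 1.31), and 4 of these DEGs were separated. The chymase *Mcpt4* was at 4.39, 7.13 and 9.20 CPM without and 29.2, 25.4 and 16.2 CPM with the ligature (log2 fold change 1.65, SE 0.38, limma adjusted p = 0.199). The tryptase *Tpsb2*, another protease of mast cell granules, was at 3.44, 8.37 and 10.1 against 23.1, 20.6 and 12.6 CPM, and again the groups did not overlap. The list summed to 22.3, 40.3 and 51.6 CPM without and 116, 104 and 68.4 CPM with the ligature, against 16.4 to 197 CPM in the other 30 libraries. Without the 3 liver-rich libraries 5 of 7 were DEGs (median 1.69), and with the hepatocyte covariate 6 of 7 were (median 1.51), all higher. Unligatured replicate 1, with the lowest sum, is the unligatured mouse left without the liver-rich libraries. When that mouse was left out instead, 4 of 7 were DEGs and higher (median 0.91). Skeletal muscle genes were also higher in the ligatured mice, and their part in the mast cell difference was not tested.

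Among 17 genes of progenitors and fibroblasts, 3 were DEGs and higher (median 0.33). *Cd34*, a surface marker of adipose progenitors, was at 154, 99.0 and 98.9 against 241, 236 and 193 CPM, and *Pdgfra*, a growth factor receptor of the same cells, at 83.7, 92.4 and 89.9 against 179, 122 and 134 CPM, both separated. The direction of this list turned without the 3 liver-rich libraries, with 0 higher and 6 lower DEGs of 16 (median -0.94), and with the hepatocyte covariate 1 was higher and 1 lower. T and NK cell genes gave 0 DEGs of 9 (median -0.15), MHC class II genes 0 of 9 (median 0.28), genes of the unfolded protein response 0 of 26 (median -0.05) and collagens 1 of 17, *Col18a1*, which was lower (median 0.07). Without the liver-rich libraries, collagens had 5 lower DEGs of 17 (median -0.91), the unfolded protein response 7 of 26 (median -0.46), and T and NK cells and MHC class II 0 (medians -0.52 and -0.88). The CCL19 receptor *Ccr7* was at 0.991, 0.864 and 1.47 against 1.64, 1.35 and 0.306 CPM. The log2 fold change of *Ccl19* was 0.49 (SE 0.67), and 0 of the 5 genes of its list were DEGs (median 0.06).

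Cytokine, acute phase and stress genes gave single differences. *Il33*, an alarmin of stromal cells, was at 46.4, 25.9 and 26.8 CPM without and 47.3, 86.1 and 67.3 CPM with the ligature, and *Il1rn*, the interleukin-1 receptor antagonist, at 2.41, 7.78 and 4.78 against 1.06, 0.553 and 0.429 CPM. Both were separated DEGs, for *Il33* by less than 1 CPM. Of 15 acute phase genes 4 were DEGs and lower (median -1.31), among them *Orm1*, a plasma glycoprotein, at 215, 104 and 118 against 51.5, 32.4 and 37.3 CPM, with the highest value in unligatured replicate 1. Of 9 heat shock genes 3 were DEGs and lower (median -0.31), including the mitochondrial chaperone *Hspd1* at 145, 355 and 410.1 against 136, 103 and 117 CPM. Of 27 interferon-stimulated genes 3 were DEGs and lower (median -0.10), and of 14 CC chemokines *Ccl24* was a DEG and higher (median 0.35). Of 18 clock genes 3 were DEGs and higher (median 0.11), among them *Per3*, a repressor of the clock, at 29.4, 36.5 and 44.3 against 52.2, 74.8 and 97.8 CPM. Without the liver-rich libraries, 4 of 14 acute phase genes and 1 of 9 heat shock genes were lower DEGs, and 0 of 27 interferon-stimulated genes and 0 of 13 CC chemokines were DEGs. Of the 18 clock genes, 5 were then higher and 1 lower.

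**Figure D3:**
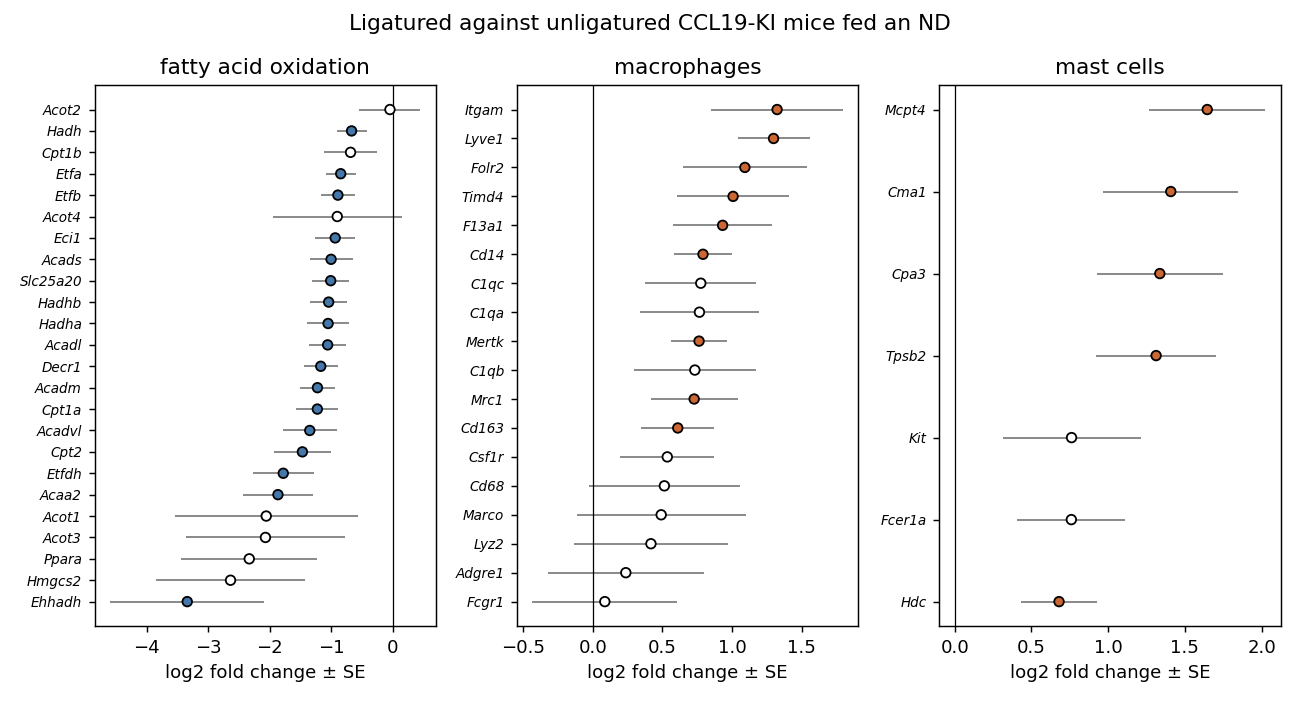
Log2 fold changes, ligatured against unligatured CCL19-KI mice fed an ND, with standard errors from limma for genes of fatty acid oxidation (1 of the 25 is not shown), macrophages and mast cells; orange points are DEGs with higher and blue points DEGs with lower values, and white points are not DEGs. The whole lists had medians of -1.17, 0.75 and 1.31.

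To ask whether the ligature had a like effect in both genotypes, its effect in CCL19-KI mice was compared with that in WT mice on the ND. The difference of the effects passed an adjusted p of 0.05 for 12 genes (0.072% of 16671), 5 with a higher and 7 with a lower effect in CCL19-KI mice, and for 6 genes by edgeR. The count was 0 with the hepatocyte covariate, 0 with the replicate number as a block, and 0 on leaving out any of 5 single mice, WT ligatured replicate 1 or 2, CCL19-KI unligatured replicate 2 or 3 or ligatured replicate 3. It was 2912 without CCL19-KI unligatured replicate 1. Without the library labelled WT unligatured replicate 2, 7 genes passed, 3 higher and 4 lower, of which 5 were among the 12, *Ltf*, *Fat3*, *Eps8l2*, *Epha2* and *Rhou*. For all 12 the fitted effects had opposite signs in the genotypes. With the library labelled WT unligatured replicate 2 kept, each of the 12 passed on its own in WT mice (limma adjusted p of 0.0490 or less). In CCL19-KI mice *Gm12840*, *Herc3* and *Rhou* were not DEGs, with log2 fold changes of -0.36, 0.39 and -0.44.

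*Ltf*, the iron-binding lactoferrin of secretions and neutrophils, had the largest difference of the 12. In WT mice *Ltf* was at 5.98, 15.8 and 5.55 CPM without and 0.0690, 0 and 0.696 CPM with the ligature, and in CCL19-KI mice at 0, 0.486 and 0.118 against 2.12, 8.47 and 8.52 CPM (difference of log2 fold changes 5.38, limma adjusted p = 0.0316, and 4.94 with adjusted p = 0.0464 without the doubted library). *Ltf* belongs to the nasal list above, which was made after the values were seen. *Fat3*, an atypical cadherin, was at 4.46, 9.63 and 1.65 against 0.207, 0.456 and 0.310 CPM in WT and at 0.425, 0.810 and 0.413 against 4.45, 7.74 and 9.74 CPM in CCL19-KI mice (difference 4.40, and 3.90 with limma adjusted p = 0.0455 without that library). In both genes, unligatured CCL19-KI mice were in or near the range of ligatured WT mice.

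*Gnao1*, a G protein subunit abundant in neurons, was at 15.6, 37.1 and 21.2 against 4.21, 4.05 and 8.59 CPM in WT and at 11.8, 6.05 and 5.01 against 25.0, 27.4 and 29.3 CPM in CCL19-KI mice. *Rgs7bp*, which anchors regulators of such G proteins, and the ubiquitin ligase *Herc3* had differences of 3.80 and 1.65. Without the doubted library the adjusted p of *Gnao1*, *Rgs7bp* and *Herc3* was 0.0636.

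In the other direction, *Eps8l2*, an actin regulator, was at 5.60, 6.74 and 4.45 against 20.1, 17.4 and 12.2 CPM in WT and at 30.7, 55.3 and 49.9 against 16.8, 14.6 and 11.4 CPM in CCL19-KI mice (difference -2.98, limma adjusted p = 0.0285, and -3.10 with adjusted p = 0.0455 without the doubted library). *Ahr*, the receptor that senses aryl hydrocarbons, was at 14.7, 9.80 and 9.85 against 39.2, 31.8 and 23.4 CPM in WT and at 43.4, 29.2 and 45.3 against 21.2, 20.6 and 19.8 CPM in CCL19-KI mice. For both genes all unligatured CCL19-KI mice were above all unligatured WT mice. The ephrin receptor *Epha2*, the actin-binding *Ablim3* and the small GTPase *Rhou* had differences of -2.03, -2.02 and -1.76. The pseudogene *Gm9973* and the non-coding *Gm12840*, named after their values were seen, had -2.92 and -2.65. Without the doubted library the limma adjusted p was 0.0455 for *Epha2* and *Rhou*, 0.0538 for *Ablim3*, 0.0673 for *Ahr*, and 0.0636 for *Gm9973* and *Gm12840*.

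**Figure D4:**
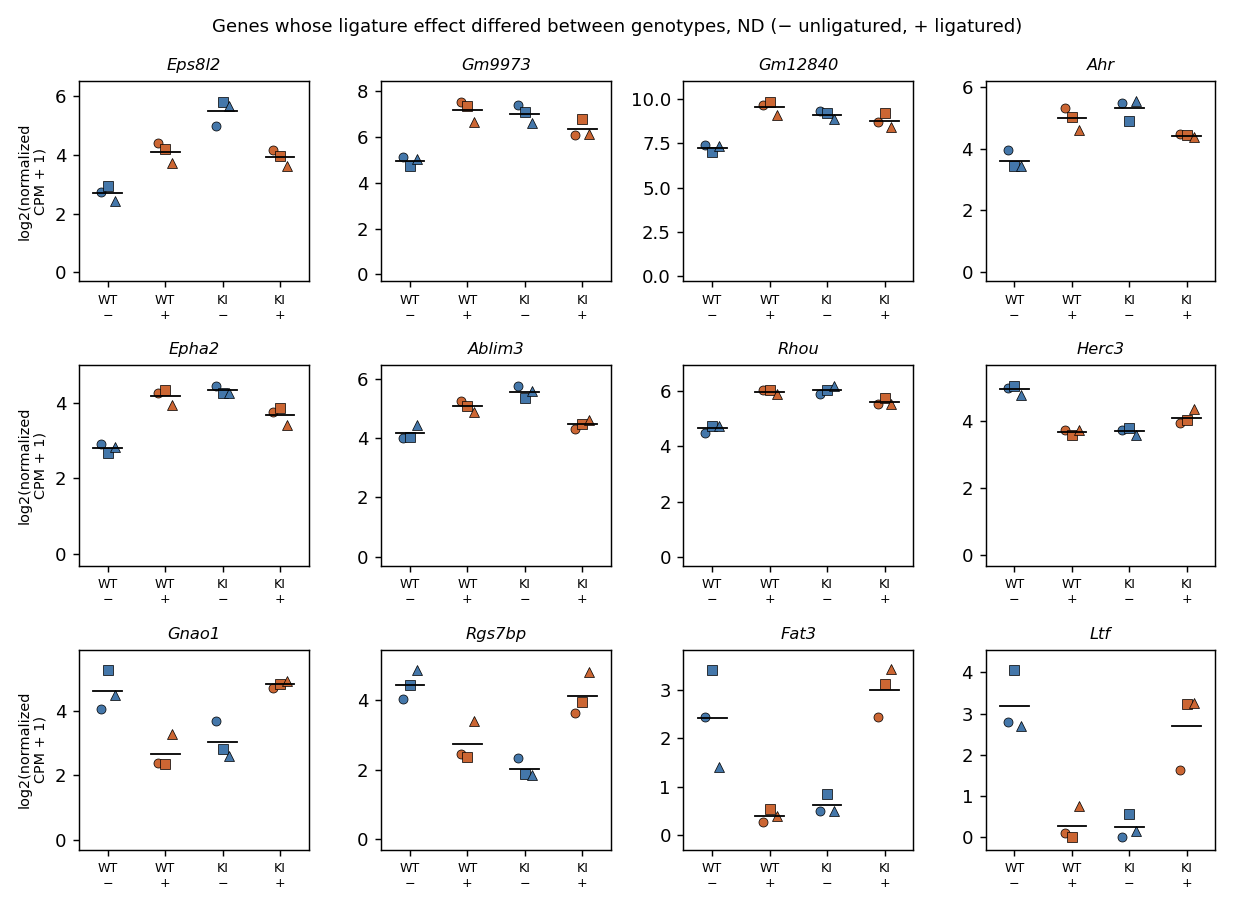
Values of the 12 genes whose ligature effect differed between genotypes, as log2(normalized CPM + 1) in each ND mouse, with bars at group means; minus and plus signs mark unligatured and ligatured mice, and the marker shape gives the replicate number. In all 12 panels the step from minus to plus ran in opposite directions in WT and CCL19-KI (KI) mice, as for *Ltf* with a difference of 5.38.

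Lists of other organs had opposite medians in the genotypes as well. In WT and CCL19-KI mice, these were 6.34 and -5.29 for hepatocytes, -1.02 and 2.24 for skeletal muscle, -1.28 and 2.13 for central neurons, and -2.77 and 2.09 for the nasal list. The central neuron and nasal lists were made after the values were seen. The hepatocyte sums of WT mice were 13.5, 16.5 and 15.2 CPM without and 7598, 8518 and 1082 CPM with the ligature, so that liver transcripts were in the ligatured group there. In WT mice the mast cell and macrophage medians were 0.24 and 0.14, and that of fatty acid oxidation was 0.15. Without the doubted library the WT medians were 6.60 for hepatocytes, -1.15 for skeletal muscle, -0.70 for central neurons, -2.34 for the nasal list, 0.50 for mast cells, -0.19 for macrophages and -0.01 for fatty acid oxidation. Their difference between genotypes was not tested as lists.

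The last comparison asked whether the effect in CCL19-KI mice depended on the diet, and both tests share the 6 ND mice. Between the ND and the 40% HFD, no gene passed an adjusted p of 0.05 for a difference of the effects (limma, 0% of 17001 genes). At an unadjusted p under 0.05 there were 970 genes, and edgeR called 0 by the adjusted p. On the 40% HFD the medians of the ligature effect were 0.33 for adipocytes, -0.06 for fatty acid oxidation, -0.75 for mast cells and -0.02 for skeletal muscle. Skeletal muscle genes summed there to 37.0 to 60.1 CPM in unligatured and 38.4 to 67.0 CPM in ligatured mice.

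Between the ND and the 60% HFD, the effect differed for 1154 genes (6.79%), higher on the ND for 570 and lower for 584. Without the library labelled CCL19-KI unligatured replicate 3 on the 60% HFD, 1321 genes differed. Of 25 fatty acid oxidation genes 17 were lower on the ND by this test, with medians of -1.17 on the ND and 1.08 on the 60% HFD. Of 20 major urinary proteins 12 were lower, of 12 hepatocyte markers 5 were lower, and of 15 smooth muscle genes 8 were higher. Without that library these counts were 16 of 25, 8 of 20, 0 of 12 and 4 of 15, and the 60% HFD median of fatty acid oxidation was 1.13.

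*Crisp1* was at 274.7, 199.9 and 9541 CPM without and 1.42, 0.0555 and 0.0745 CPM with the ligature on the 60% HFD, and its difference to the ND was 13.67 (limma adjusted p = 0.0201). The value of 9541 CPM is that of the doubted library, and without it the difference was 11.89 (limma adjusted p = 0.0291). *Actg2* had a difference of 11.20 and *Mup7* of -11.97, and of 11.88 and -12.11 without that library (limma adjusted p = 0.0236 and 0.0305). The hepatocyte sums on the 60% HFD were 699, 1349 and 12.3 CPM without and 19420.0, 16555 and 2044 CPM with the ligature, high in the ligatured group, unlike on the ND. With the hepatocyte covariate, 14 genes differed in place of 1154.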

How the data were processed

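RNA from eWAT of 36 male mice had been sequenced by the authors, who trimmed the reads (Trimmomatic 0.38), aligned them with Bowtie2 within RSEM 1.3.0 and normalized gene counts with edgeR. The build is named as mm10 in the study's methods and as GRCm39 in the submitters' processing notes, and GENCODE M21 on GRCm38 was used here for symbols and positions. The deposited table holds signal values, per the authors normalized CPM, for 24750 genes. Divided by the value of a single read, 100% were whole within 0.01, and reads were recovered in this way.

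Values were transformed to log2(normalized CPM + 1), so that fold changes of low genes are understated. Genes reaching 1 CPM in 3 or more of the libraries fitted together (12 ND mice, or 18 CCL19-KI mice for the diets) entered limma 3.58.1 with a mean trend in R 4.3.3, with Benjamini-Hochberg adjustment over all genes tested. The libraries are 1 mouse each by the labels, and no pair agreed within sampling noise. Alternatives included edgeR 4.0.16 on the recovered reads, and the scripts were tested on simulated reads. The members and lists were chosen with earlier results of these data known, and 3 lists and 2 alternatives were added after the values were seen. Of the DEGs that do not overlap, the 12 largest in each direction were named, without predicted genes, with up to 5 genotype differences in each direction, the listed genes and those named by the study. Values of 2 listed genes are not reported here.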

Additional observations from a re-analysis of the deposited data

Results flagged for a closer look

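The effect of the ligature differed between CCL19-KI and WT mice on the ND for 12 genes by the test of the difference itself (limma, adjusted p under 0.05). On the log2 scale the differences were 5.38 for *Ltf*, 4.40 for *Fat3*, 3.80 for *Rgs7bp*, 3.72 for *Gnao1* and 1.65 for *Herc3*. They were -2.98 for *Eps8l2*, -2.92 for *Gm9973*, -2.65 for *Gm12840*, -2.26 for *Ahr*, -2.03 for *Epha2*, -2.02 for *Ablim3* and -1.76 for *Rhou*. Between the ND and the 60% HFD in CCL19-KI mice, the effect differed for 1154 genes. The groups of 3 mice are too small for a search for single outlying mice.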

How the results depend on the processing

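The count of 0 genes by the adjusted p became 8559 with sample quality weights (estimated from the data, 0.156 to 7.32), 244 with all 36 mice and 27 without ligatured replicates 1 and 2, which leaves 1 ligatured mouse, assumed to vary like the other groups, here and in the counts below. Leaving out 1 mouse gave 0 to 2431, with 2431 without CCL19-KI unligatured replicate 1, 75 without the library labelled WT unligatured replicate 2 and 3 without WT unligatured replicate 1. Of the alternatives added after seeing the data, leaving out unligatured replicates 2 and 3 and ligatured replicate 1 gave 1 gene. The 1959 DEGs became 5329 with quality weights, 854 with the hepatocyte covariate and 1103 at a ratio of 2, and leaving out 1 mouse gave 867 to 3632. The highest, 3632, was without CCL19-KI unligatured replicate 1, the lowest, 867, without replicate 3, and there were 1113 and 1111 without unligatured and ligatured replicate 2. Higher genes were 50.7% of the DEGs, but 39.4% at a pseudocount of 5, 39.2% at a mean of at least 5, 63.3% with only the 6 mice and 61.9% with the covariate.

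The 12 genotype differences became 5 at a pseudocount of 5, 6 with no filter, 4 with quantile normalization, 7883 with quality weights, 6 with edgeR, 1355 with all 36 mice, 101 without ligatured replicates 1 and 2, 97 without the 3 liver-rich libraries and 0 with the covariate, and leaving out 1 mouse gave 0 to 2912. The count was 0 without WT ligatured replicate 1 or 2, or without unligatured replicate 2 or 3 or ligatured replicate 3 of the CCL19-KI mice, 296 and 5 without CCL19-KI ligatured replicates 1 and 2, 7 without the library labelled WT unligatured replicate 2, 45 without WT ligatured replicate 3, and 2912 without CCL19-KI unligatured replicate 1. With the replicate number as a block it was 0, with 3819 genes at an unadjusted p under 0.05. Same-numbered mice share only a number and did not deviate together (r = -0.51, -0.19 and -0.25 between the deviations of the CCL19-KI pairs across genes), and the block left the DEGs at 1860 and the difference to the 60% HFD at 847.

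The 0 differences to the 40% HFD became 6 at a pseudocount of 5, 6 with no filter, 6587 with quality weights, 67 without ligatured replicates 1 and 2 and 3 without the liver-rich libraries, and leaving out 1 mouse gave 0 to 51, with 51, 14, 12 and 1 without ligatured replicate 1, unligatured replicate 1, ligatured replicate 3 and unligatured replicate 2. The 1154 differences to the 60% HFD became 655 at a pseudocount of 5, 699 with no filter, 7333 with quality weights, 2250 with edgeR, 2502 with all 36 mice, 275 without ligatured replicates 1 and 2, 450 without the liver-rich libraries and 14 with the covariate, and leaving out 1 mouse gave 223 to 2710. It was 2710, 457 and 241 without unligatured replicates 1, 2 and 3, 223 and 746 without ligatured replicates 2 and 3 on the ND, and 250 and 467 without ligatured replicates 1 and 2 on the 60% HFD. The causes were not tested. Of the 638 values of the 24 named genes under these alternatives, 608 stayed DEGs, 30 did not and none changed sign. These genes were chosen as DEGs whose groups did not overlap, so leaving out mice could not change their sign. The counts are therefore no independent check of them.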
